A study of Mus musculus with 18 samples.

Results

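The genes described here are 10 members of the NF-kappaB system, taken by name from a list: the factor genes Nfkb1, Nfkb2, Rela and Relb, the feedback regulators Nfkbia, Nfkbiz, Tnfaip3 and Birc3, and the adhesion genes Icam1 and Vcam1. They are 10 of 55401 gene identifiers in the count table, of which 30065 had a count in at least 1 library, and all 10 passed the filter on low counts in every comparison. RNA-seq counts were available for 18 libraries of C57BL/6 mouse embryonic fibroblasts (MEFs), primary cells grown from the minced bodies of embryos after head and viscera were taken away. To ask how ribosomal S6 kinases act in senescence driven by an oncogene, MEFs had been given a retroviral vector for the constitutively active HRAS mutant (RAS) or an empty vector (EV). The S6K1 series was made up of WT EV, WT RAS and S6K1 KO RAS cells, and the S6K1/S6K2 series of its own WT EV and WT RAS cells and of S6K1/S6K2 DKO RAS cells that lack both kinases, with 3 libraries in each of the 6 groups. WT and S6K1 KO MEFs came from the same mothers, whereas DKO MEFs came from crosses of S6K1 heterozygous, S6K2 knockout parents and their WT controls from WT mothers of earlier breeding stages, so those are not littermates. Mutant cells were analysed here under RAS alone, so the effect of RAS was measured in WT cells.

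NF-kappaB is a family of dimeric transcription factors held in the cytoplasm by IkappaB proteins until the IKK kinases are activated by DNA damage or by receptors for cytokines and microbial products. Rela, Nfkb1 and their partners form the canonical dimers, and Relb with the processed product of Nfkb2 forms the non-canonical one. The pathway switches on its own regulators, among them IkappaB-alpha (Nfkbia), the atypical nuclear IkappaB-zeta (Nfkbiz) and the ubiquitin-editing enzyme A20 (Tnfaip3). The ubiquitin ligase cIAP2 (Birc3) is another. Icam1 and Vcam1 are classical targets that hold leukocytes to endothelium and stroma. In senescent fibroblasts the family is known as a driver of the secretory programme.

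Promoter sequences are shown for 4 members whose transcription the family is known to control, so that the matches to its binding motif can be seen beside the levels below. RefSeq promoter entries (GRCm38.p6, 250 bases before to 50 bases after a start site) were found for 6 of the 10 genes, 9 entries in all (Birc3, Icam1, Nfkb2, Nfkbia, Rela and Tnfaip3). They were searched on both strands for the kappaB consensus, which 8.46% of 32851 mouse promoter entries of the same length held. The consensus was found in at least 1 entry of 3 of the 6 genes (Nfkb2, Nfkbia and Tnfaip3), beside 9.55% of 27025 gene symbols with an entry. Each window below ends at the last base before the start site, is 140 bases long and is written 5′ to 3′ on the gene's own strand, with consensus matches in capitals.
Tnfaip3 (chr10:19015411-19015550, minus strand): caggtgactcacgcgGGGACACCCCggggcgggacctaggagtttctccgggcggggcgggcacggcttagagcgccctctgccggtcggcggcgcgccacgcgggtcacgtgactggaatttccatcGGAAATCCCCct
Nfkbia (chr12:55492648-55492787, minus strand): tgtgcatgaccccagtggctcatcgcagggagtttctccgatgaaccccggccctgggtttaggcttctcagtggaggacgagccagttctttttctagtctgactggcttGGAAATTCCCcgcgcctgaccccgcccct
Nfkb2 (chr19:46304597-46304736, plus strand): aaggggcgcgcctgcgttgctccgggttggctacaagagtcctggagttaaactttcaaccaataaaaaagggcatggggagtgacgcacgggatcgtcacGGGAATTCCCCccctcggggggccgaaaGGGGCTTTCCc
Icam1 (chr9:21015800-21015939, plus strand): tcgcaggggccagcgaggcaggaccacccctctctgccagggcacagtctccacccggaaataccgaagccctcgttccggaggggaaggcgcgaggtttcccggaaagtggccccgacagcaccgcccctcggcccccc
The Tnfaip3 matches began 125 and 12 bases before its start, the Nfkbia match 29 bases before, and the Nfkb2 matches 39, 38 (overlapping the first) and 11 bases before. Icam1 is shown as a window without a match, which says only that these letters are not in its entry. Nfkb1, Relb, Nfkbiz and Vcam1 are named without a promoter sequence.

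Total counts per library were between 8319445 and 14402442, and the members had between 39 (Tnfaip3) and 4920 (Vcam1) counts in a library. The labels held for the targeted genes. Rps6kb1, which encodes S6K1, was at 23.5 to 36.9 CPM (a library's count relative to its total, TMM-scaled over the libraries of a series) in the KO libraries against 61.5 to 74.5 CPM in WT RAS and at 34.4 to 39.7 CPM in the DKO libraries against 75.4 to 83.6 CPM. Rps6kb2, which encodes S6K2, was at 2.67 to 3.04 CPM in the DKO libraries against 24.0 to 28.9 CPM. The summed level of 14 fibroblast markers was 49475 to 64734 CPM with EV and 25544 to 39571 CPM with RAS, and that of 7 epithelial markers 8.39 to 18.3 CPM with EV and 88.5 to 237 CPM with RAS. These sums rest on a few genes. In the S6K1 series Col1a1 went from 10501 to 13563 CPM in WT EV to 2815 to 3677 CPM in WT RAS. Of the 14 fibroblast markers, 10 had a log2 fold change below 0 with RAS and 4 above 0 in each series. Krt18 alone was at 103 to 142 CPM and Epcam at 0.802 to 1.63 CPM in WT RAS of the S6K1 series. In WT EV of that series they were at 4.39 to 9.10 and 0 to 0.209 CPM. All 5 epithelial markers tested had a log2 fold change above 0 with RAS in each series (medians 4.32 and 4.80). The part of these markers in the differences of the members with RAS was not tested. A list of 20 macrophage markers was not at 0: its sum was 763 to 3754 CPM in WT EV, 826 to 4275 CPM in WT RAS and 277 to 981 CPM in KO RAS of the S6K1 series, and 182 to 1674, 195 to 1159 and 79.2 to 273 CPM in WT EV, WT RAS and DKO RAS of the other series. Of 12 endothelial markers, whose sum stayed between 23.1 and 48.6 CPM, Cldn5 and Robo4 had no count in any WT EV library of either series. Single endothelial markers did differ with RAS. At an adjusted p under 0.05, edgeR called 3 higher and 1 lower of 8 tested in the S6K1 series, beside 13.2% of all genes. In the S6K1/S6K2 series it called 2 higher and 2 lower of 6, beside 26.3%. In bulk RNA, fewer cells of a type and less RNA per cell cannot be told apart. WT EV replicate 1 of the S6K1/S6K2 series stood apart for several members and held 1674 CPM of macrophage markers. The other WT EV libraries of that series held 182 and 242 CPM. Log2 fold changes with RAS that rest on this library are therefore given with and without it. Correlations, and the Relb difference of RAS effects between the series, are given with it only.

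Expressed per kilobase of exon, Vcam1 was the most abundant member in WT EV of both series, at 52.1 ± 4.76 and 56.0 ± 9.30 CPM per kilobase (SD, n = 3). Rela was second in WT EV of the S6K1 series at 29.4 ± 3.16 CPM per kilobase, and ranked first in WT RAS and DKO RAS of the S6K1/S6K2 series, at 31.2 ± 2.57 and 32.4 ± 3.34. Relb, Birc3 and Tnfaip3 held the last 3 places in all 6 groups. In WT EV of the S6K1/S6K2 series Nfkbiz (6.57 ± 3.80) and Relb (6.37 ± 2.35) were within each other's spread, as were Icam1, Nfkb2, Nfkbiz, Nfkbia and Nfkb1 (the highest at 17.1 ± 4.98 CPM per kilobase) in WT EV of the S6K1 series.

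RAS raised Tnfaip3 in the WT cells of both series. In the S6K1/S6K2 series it also raised Nfkbiz and lowered Vcam1, and Nfkbiz was higher in all 3 lines of the S6K1 series as well. In the S6K1 series 1 of the 10 members passed an adjusted p of 0.05 in edgeR's quasi-likelihood test over all genes, where 13.2% of 14036 genes did. Of the 10, 3 passed in the S6K1/S6K2 series, where 26.3% of 13881 genes did. The median log2 fold change of the 10 members was 0.05 and −0.05 in the S6K1 and S6K1/S6K2 series, beside 0.0018 and −0.024 over all genes tested. The 3 EV and 3 RAS libraries did not overlap for 1 member (Tnfaip3) in the S6K1 series, where 30.9% of all genes did not, and for 4 members (Tnfaip3 and Nfkbiz higher, Relb and Vcam1 lower) in the S6K1/S6K2 series, where 42.5% did not. Cells with the same replicate number behaved as pairs, and with that number as a block 2 and 4 members passed, against 36.2% and 28.7% of all genes. Nfkbiz was then called in the S6K1 series too (adjusted p = 0.0154 by edgeR). Its difference of RAS effects between the series passed under no alternative tried. At an unadjusted p under 0.05 there were 1 and 6 members, beside 26.4% and 39.8% of all genes, and log2 fold changes below 0 were found for 2 and 6 members, beside 49.8% and 51.8%.

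**Figure D1:**
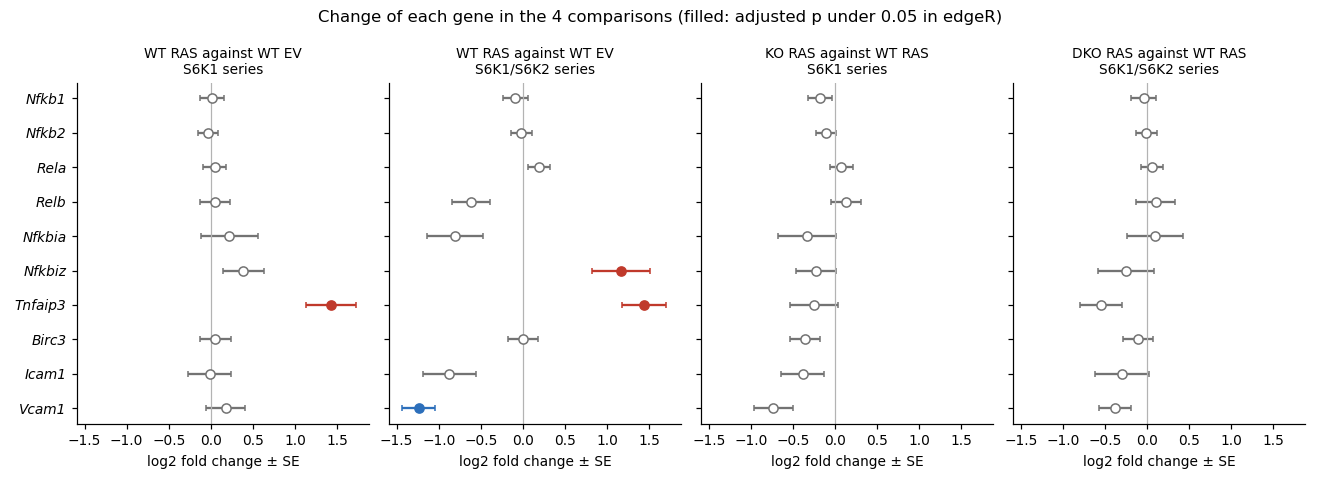
Log2 fold change (x axis, with its SE) of the 10 members (y axis) in the 4 comparisons of the design, from edgeR. Filled points passed an adjusted p of 0.05: Tnfaip3 in both RAS comparisons, and in the S6K1/S6K2 series Nfkbiz (higher) and Vcam1 (lower), while no point is filled for KO or DKO against WT.

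Among the factor genes, none of the 4 passed the test with RAS in either series, with DESeq2 giving the same count of 0 and unadjusted p under 0.05 for 0 of 4 in the S6K1 and 1 of 4 (Relb) in the S6K1/S6K2 series. Rela (chromosome 19, 5637483 to 5648130, plus strand of NCBIM37), which encodes the transactivating subunit p65, was at 89.8, 75.3 and 74.6 CPM in WT EV and 84.7, 81.9 and 81.0 CPM in WT RAS of the S6K1 series, and at 82.4, 64.3 and 75.5 CPM and 91.9, 78.0 and 83.9 CPM in the S6K1/S6K2 series. Its values overlapped in both, with log2 fold changes of 0.05 (SE 0.14) and 0.19 (SE 0.13). Nfkb1 (chromosome 3, 135247619 to 135354511, minus strand), the gene of p105 and p50, ranged from 43.8 to 71.2 CPM over all 18 libraries and differed with RAS by 0.01 (SE 0.14) and −0.09 (SE 0.15). Nfkb2 (chromosome 19, 46379227 to 46386580, plus strand), the gene of p100 and p52, ranged from 40.3 to 56.4 CPM and differed by −0.04 (SE 0.12) and −0.02 (SE 0.12). These 3 genes were the most even of the 10, with the highest library of a group at most 1.37 times the lowest, where that ratio reached 1.47 for Birc3 and 3.48 for Nfkbiz.

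Relb (chromosome 7, 20191566 to 20214787, minus strand), which encodes the non-canonical partner of p52, was less even. Its libraries in the S6K1 series had 19.0, 13.1 and 17.4 CPM with EV and 19.4, 17.0 and 14.9 CPM with RAS, and the groups overlapped. The S6K1/S6K2 libraries had 35.3, 20.6 and 18.5 CPM with EV and 16.8, 16.8 and 14.99 CPM with RAS. All 3 RAS libraries there were lower, with EV replicate 1 far above the rest, and the log2 fold change was −0.62 (SE 0.23, adjusted p = 0.0738 in edgeR). Without EV replicate 1 it was −0.27 (SE 0.15, adjusted p = 0.218), and over all alternatives the adjusted p lay between 0.0279 and 0.218.

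Of the feedback regulators, Tnfaip3 (chromosome 10, 18720716 to 18735463, minus strand) rose with RAS in both series. A20 takes activating ubiquitin chains off the signalling complexes upstream of IKK. The S6K1 series had Tnfaip3 at 8.41, 8.86 and 4.57 CPM with EV and 18.4, 24.2 and 16.4 CPM with RAS, so every RAS library was above every EV library. The mean rose 2.704-fold (1.43 on the log2 scale, SE 0.29, adjusted p = 0.0120 by edgeR). Without WT RAS replicate 2 it was 1.26 with an adjusted p of 0.0511, which is the alternative of those tried that lost this call. In the other series Tnfaip3 was at 5.06, 3.44 and 4.36 CPM with EV and 13.8, 10.1 and 11.0 CPM with RAS, a 2.72-fold rise of the mean (1.44 on the log2 scale, SE 0.26, adjusted p = 0.00370 by edgeR). All 6 WT lines had more Tnfaip3 with RAS, by 1.13 to 1.85 and 1.34 to 1.55 on the log2 scale in the S6K1 and S6K1/S6K2 series. Per kilobase it was nevertheless the lowest member in all 6 groups, at 2.72 ± 0.557 CPM per kilobase where it was highest.

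Nfkbiz (chromosome 16, 55811488 to 55839012, minus strand) encodes a nuclear IkappaB that both restrains NF-kappaB and helps switch on secondary targets such as Il6. Its libraries in the S6K1 series had 66.2, 80.7 and 59.3 CPM with EV and 81.1, 117.3 and 70.8 CPM with RAS. Each line was higher with RAS, by 0.26 to 0.54 on the log2 scale, yet the groups overlapped. The log2 fold change of 0.38 (SE 0.24) had an adjusted p of 0.359 by edgeR. Blocking on the replicate number gave 0.36 with an adjusted p of 0.0154, and over all alternatives it lay between 0.0154 and 0.763. Its EV libraries in the S6K1/S6K2 series were spread widely, at 15.3, 30.5 and 53.1 CPM, and the RAS libraries were close together at 74.0, 69.6 and 78.3 CPM. There Nfkbiz rose 2.24-fold in the mean (1.17 on the log2 scale, SE 0.34, adjusted p = 0.0321 by edgeR). The call held without EV replicate 1 (0.82, adjusted p = 0.0250) and was lost without EV replicate 2 or any one RAS library, with adjusted p between 0.0619 and 0.0997, and with the 6 compared libraries alone (0.0669).

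Nfkbia (chromosome 12, 56590398 to 56593634, minus strand), the most direct feedback inhibitor, did not pass the test in either series. It was at 27.5, 19.5 and 16.6 CPM with EV and 33.4, 25.8 and 14.8 CPM with RAS in the S6K1 series, with 2 lines higher and 1 lower with RAS. The S6K1/S6K2 libraries were at 62.4, 27.7 and 24.9 CPM with EV and 29.1, 17.7 and 19.0 CPM with RAS, and all 3 lines were lower. The log2 fold change was −0.81 (SE 0.33, adjusted p = 0.102 by edgeR), −0.74 when blocked on the replicate number (adjusted p = 0.0429), and −0.26 without EV replicate 1 (adjusted p = 0.403), whose 62.4 CPM is far above every other library. Over all alternatives the adjusted p lay between 0.0159 and 0.403. Birc3 (chromosome 9, 7848699 to 7873186, minus strand) stayed between 12.7 and 21.8 CPM in all 18 libraries, with log2 fold changes of 0.05 (SE 0.18) and 0.0028 (SE 0.18).

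**Figure D2:**
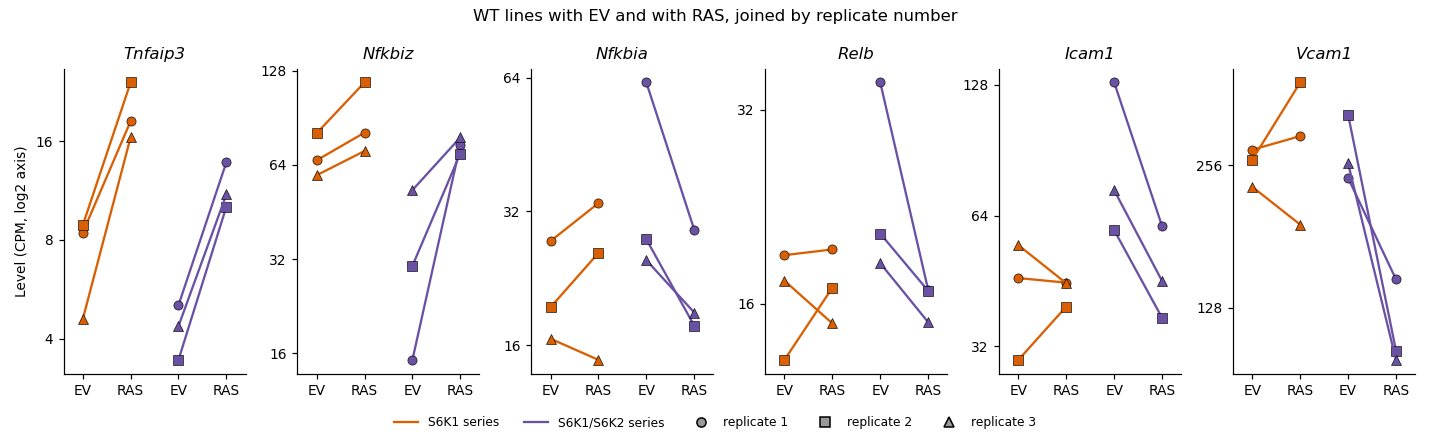
Level (y axis, CPM on a log2 scale that does not start at 0) of 6 members in the WT lines with EV and with RAS, lines joining libraries of the same replicate number. Tnfaip3 and Nfkbiz go up in all 6 lines, whereas Nfkbia, Relb, Icam1 and Vcam1 go down in all 3 S6K1/S6K2 lines and in mixed directions in the S6K1 lines.

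Vcam1 (chromosome 3, 115812938 to 115832606, minus strand), which encodes the ligand of integrin alpha4 beta1, was at 240.5, 327 and 258 CPM with EV and 147, 104 and 99.4 CPM with RAS in the S6K1/S6K2 series. Every RAS library was below every EV library, and the mean with RAS was 0.424 of the EV mean (−1.24 on the log2 scale, SE 0.19, adjusted p = 0.00201 by edgeR). Vcam1 passed the test under every alternative tried in that series, from −1.44 without RAS replicate 1 to −1.09 without EV replicate 2. In lines 2 and 3, where the macrophage marker sum was 182 and 242 CPM with EV and 195 and 286 CPM with RAS, Vcam1 fell by 1.65 and 1.38 on the log2 scale, and in line 1, where that sum was 1674 and 1159 CPM, by 0.71. Of the 19 macrophage markers tested in this series, 15 had a log2 fold change below 0 with RAS and 4 above 0. Their median was −0.75, and 0 were called in edgeR. The part of macrophage RNA in these falls was not tested. The S6K1 libraries had 276, 263 and 230.4 CPM with EV and 295, 383 and 192 CPM with RAS. These groups overlapped, with lines 1 and 2 higher and line 3 lower (0.18 on the log2 scale, SE 0.23, adjusted p = 0.675 by edgeR). The difference of the RAS effects, S6K1/S6K2 minus S6K1 series, was −1.43 (SE 0.32, adjusted p = 0.128 by edgeR). It passed with DESeq2 (−1.42, adjusted p = 0.00930) and with no filter (adjusted p = 0.00505), had an adjusted p of 0.0591 with the replicate block, and over all alternatives the adjusted p was between 0.00505 and 0.365. Whether the series itself or a batch lies behind such a difference cannot be told apart.

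Icam1 (chromosome 9, 20820404 to 20833241, plus strand), the ligand of the leukocyte integrins LFA-1 and Mac-1, was at 45.9, 29.8 and 54.7 CPM with EV and 44.8, 39.5 and 44.7 CPM with RAS in the S6K1 series, where the groups overlapped. Its S6K1/S6K2 libraries were at 129.7, 59.2 and 73.2 CPM with EV and 60.5, 37.2 and 45.2 CPM with RAS. All 3 lines had less Icam1 with RAS, by 0.67 to 1.10 on the log2 scale, but the highest RAS library was above the lowest EV library. The log2 fold change was −0.87 (SE 0.32, adjusted p = 0.0671 by edgeR and 0.0333 by DESeq2). Without EV replicate 1 it was −0.48 (adjusted p = 0.222), and over all alternatives the adjusted p lay between 0.00392 and 0.222. No member passed the test of the difference of RAS effects in edgeR, where 0.00% of 14483 genes did, and 2 members (Vcam1, and Relb at −0.68) had an unadjusted p under 0.05 in it, beside 12.6% of all genes. DESeq2 called 1 member, Vcam1, in this difference, beside 0.472% of all genes. With the replicate block 5 members had an unadjusted p under 0.05 in it, beside 23.9% of all genes.

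**Figure D3:**
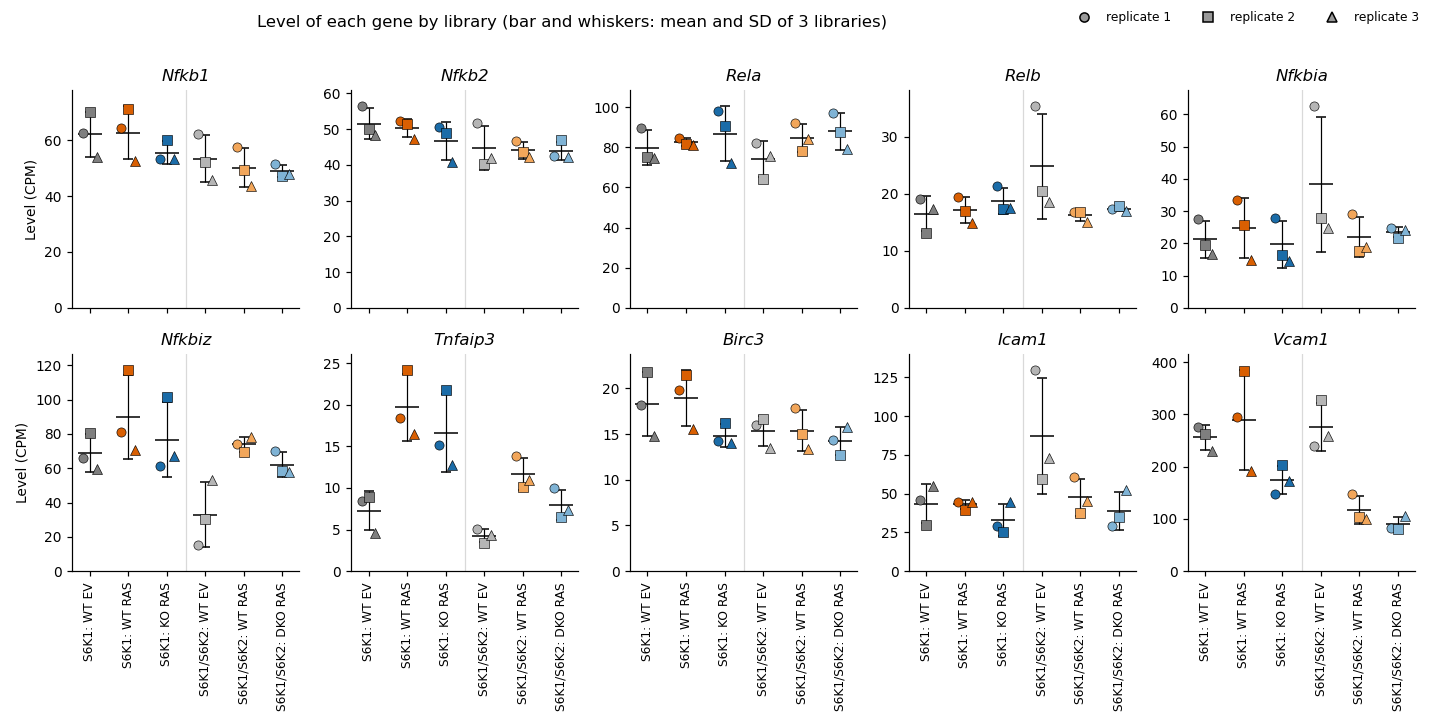
Level (y axis, CPM) of each member in the 18 libraries, by group (x axis), with the mean and SD of 3 libraries. Tnfaip3 is higher in all RAS groups than in the EV group of its series, Vcam1 has no RAS library as high as its EV libraries in the S6K1/S6K2 series, and WT EV replicate 1 of that series (circle) is the highest library for Relb, Nfkbia and Icam1 and the lowest for Nfkbiz.

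Loss of S6K1 under RAS left no member past the threshold in the fit by group alone. With the replicate block 1 member (Vcam1) passed, where 4.15% of all genes did. Without the block 0 of the 10 members passed an adjusted p of 0.05 in edgeR or in DESeq2, where 0.00712% of 14036 genes passed in edgeR. Of the 10, 1 (Vcam1) had an unadjusted p under 0.05 in edgeR, where 6.86% of genes did. Blocked on the replicate number, 5 members (Nfkbia, Nfkbiz, Birc3, Icam1 and Vcam1) had an unadjusted p under 0.05, where 17.8% of genes did, and all 5 had log2 fold changes below 0. The groups overlapped for all 10 members, where they did not overlap for 8.02% of genes. This comparison uses the same WT RAS libraries as the RAS comparison of its series. All 4 feedback regulators and both adhesion genes had log2 fold changes below 0, from −0.73 (Vcam1) to −0.23 (Nfkbiz), and the 4 factor genes lay between −0.18 (Nfkb1) and 0.13 (Relb). In all, 8 of the 10 were below 0, beside 43.4% of all genes, and the median of the 10 was −0.24, beside 0.03 over all genes.

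Vcam1 was at 148, 203 and 173 CPM in KO RAS against 295, 383 and 192 CPM in WT RAS. All 3 KO libraries were below the WT library of the same number, and KO replicate 2 was above WT replicate 3. The log2 fold change was −0.73 (SE 0.23, adjusted p = 0.587 by edgeR). Blocked on the replicate number it was −0.70 and passed (adjusted p = 0.0441), as 4.15% of all genes did, and over all alternatives the adjusted p lay between 0.0441 and 1. With the block and the 6 compared libraries alone, an alternative chosen after seeing the data, the adjusted p was 0.0692. Between libraries of the same number, which are KO and WT cells of different embryos, Vcam1 differed by −0.998, −0.92 and −0.15 on the log2 scale for numbers 1, 2 and 3. The macrophage marker sum went from 4275 to 981, from 3809 to 759 and from 826 to 277 CPM between those libraries. All 20 macrophage markers had a log2 fold change below 0 with an unadjusted p under 0.05 in edgeR (median −2.22). Of these, 0 were called in edgeR and 1 in DESeq2, beside 0.00712% and 0.348% of all genes. None of the 20 was at 0 over a whole group. Their part in the Vcam1 difference was not tested.

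**Figure D4:**
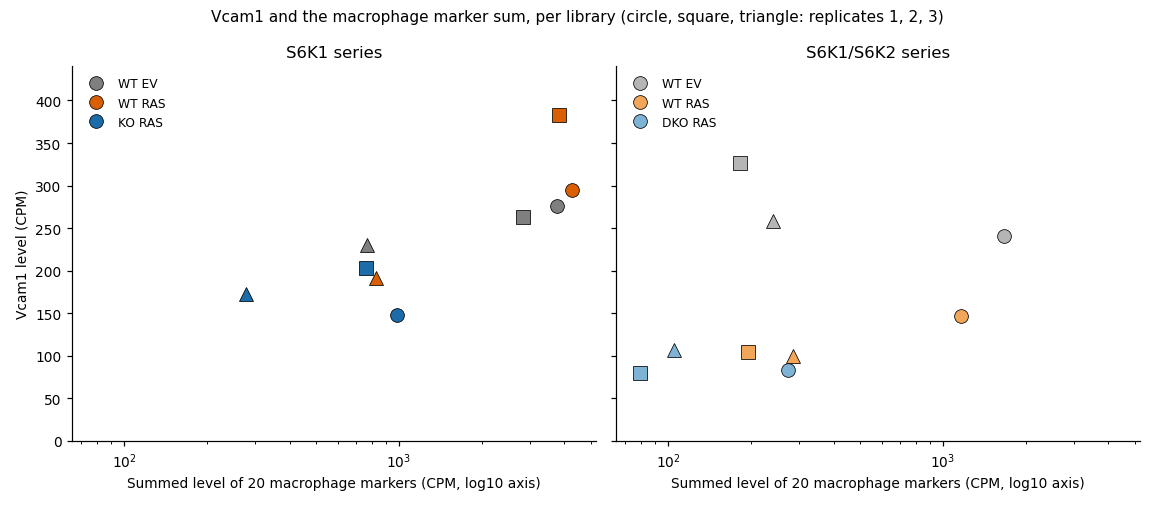
Vcam1 level (y axis, CPM) against the summed level of 20 macrophage markers (x axis, CPM, log10 scale) for each library, one panel a series. In the S6K1 series the 2 WT RAS libraries with the highest Vcam1 levels (295 and 383 CPM) are those with the highest marker sums (4275 and 3809 CPM). KO replicate 1 (148 CPM, sum 981 CPM) lies below WT RAS replicate 3 (192 CPM, sum 826 CPM) and WT EV replicate 3 (230.4 CPM, sum 763 CPM). KO replicate 2 (203 CPM, sum 759 CPM) lies above that WT RAS library and below that WT EV library. KO replicate 3 (173 CPM, sum 277 CPM) lies below both. In the S6K1/S6K2 series all WT RAS and DKO RAS libraries have lower Vcam1 levels than the WT EV libraries. Their marker sums are 195 to 1159 CPM in WT RAS and 182 to 1674 CPM in WT EV. DKO replicate 1 has a sum of 273 CPM. DKO replicates 2 and 3, at 79.2 and 105 CPM, have lower sums than any WT EV library. The part of macrophage RNA in these Vcam1 levels was not tested.

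Birc3 had the next lowest unadjusted p, at 14.3, 16.2 and 13.98 CPM in KO RAS against 19.9, 21.5 and 15.6 CPM in WT RAS (−0.35 on the log2 scale, SE 0.18, adjusted p = 0.850 by edgeR). Icam1 was at 28.9, 25.4 and 44.8 CPM in KO RAS, lower than the WT RAS library of the same number for 1 and 2 and level with it for 3 (−0.38, SE 0.26, −0.66 to −0.22 when 1 library was left out). Tnfaip3 kept a level of 15.2, 21.8 and 12.7 CPM in KO RAS, above all 3 WT EV libraries, and differed from WT RAS by −0.25 (SE 0.28, −0.50 to −0.083 when 1 library was left out). Nfkbia (28.0, 16.5 and 14.6 CPM) and Nfkbiz (61.5, 101.6 and 67.0 CPM) were lower than the WT RAS library of the same number for all 3, by −0.33 (SE 0.34) and −0.23 (SE 0.24). Blocked on the replicate number these were −0.32 (SE 0.13, adjusted p = 0.236 by edgeR) and −0.23 (SE 0.096, adjusted p = 0.257). Leaving out 1 library gave −0.68 to −0.050 for Nfkbia and −0.48 to 0.0032 for Nfkbiz, the last without WT RAS replicate 2.

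Loss of both kinases left no member past the threshold, with or without the replicate block. Of the 10 members 0 passed in edgeR, where 0.0216% of 13881 genes did, and 0 passed in DESeq2. In edgeR 0 had an unadjusted p under 0.05, where 1.29% of genes did. In DESeq2 and with the replicate block 1 member had one, where 0.854% and 2.28% of genes did. There was also 1 with 10 counts or more in each library and with the 6 compared libraries alone, where 1.09% and 2.07% did. The groups did not overlap for 2 members, Tnfaip3 (lower) and Relb (higher), where they did not overlap for 6.07% of genes. Log2 fold changes were below 0 for 7 members, beside 50.1% of all genes, and the median of the 10 was −0.07. The WT RAS libraries are again those of the RAS comparison of the series. Tnfaip3 was at 9.99, 6.48 and 7.39 CPM in DKO RAS against 13.8, 10.1 and 11.0 CPM in WT RAS, between the WT EV and the WT RAS libraries. Its mean was 0.683 of the WT RAS mean (−0.55 on the log2 scale, SE 0.25), and its adjusted p by edgeR rounded to 1, as for the other members. Relb was at 17.3, 17.9 and 16.9 CPM against 16.8, 16.8 and 14.99 CPM, a small difference of 0.10 (SE 0.23). Vcam1 was at 82.9, 80.1 and 106 CPM against 147, 104 and 99.4 CPM, and the groups overlapped (−0.38, SE 0.19, −0.52 to −0.18 when 1 library was left out). Icam1 was at 29.4, 34.6 and 52.3 CPM (−0.30, SE 0.32, −0.57 to −0.089 when 1 library was left out) and Nfkbia at 24.6, 21.8 and 24.0 CPM, both overlapping WT RAS. All 19 macrophage markers tested had a log2 fold change below 0 here as well (median −1.98, 2 with an unadjusted p under 0.05), and their part in the members' values was not tested. The difference of the loss effects between the series had no member with an unadjusted p under 0.05, where 1.23% of genes had one, and no member passed the adjusted threshold in edgeR, where 0.00690% of genes did, or in DESeq2.

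The other genes of the pathway were read from 5 lists compiled by role (79 genes, of which 77 were in the table). With RAS, 12 of 68 tested genes passed in the S6K1 series (9 higher, 3 lower, median log2 fold change 0.04) and 18 of 65 in the S6K1/S6K2 series (15 higher, 3 lower, median 0.10), beside the 13.2% and 26.3% of all genes given above. With the replicate block 26 of 68 (15 higher, 11 lower) and 22 of 65 (15 higher, 7 lower) passed, beside 36.2% and 28.7% of all genes. The higher calls lay mostly in the target and adhesion lists. Of the targets, 5 of 12 were higher and 1 lower in the S6K1 series (median 0.63) and 4 of 10 higher and 2 lower in the S6K1/S6K2 series (median 1.17). Of the adhesion partners, 3 of 10 and 5 of 9 were higher and 0 lower (medians 0.53 and 1.23). DESeq2, run without the filter on low counts, called 4 and 6 higher and 0 lower, beside 8.64% and 15.1% of all genes. Receptors and adaptors had 1 higher and 1 lower of 21 in the S6K1 series and 4 higher and 1 lower of 21 in the other (medians −0.09 and −0.11). Of the kinases, 0 of 11 passed in the S6K1 series (1 with an unadjusted p under 0.05, 0 in DESeq2), and 1 of 11 was higher in the S6K1/S6K2 series (Ikbke, 0.57). The remaining factors and inhibitors had 1 of 14 called in each series, Rel lower (−0.73) in the S6K1 series and Rnf11 higher (0.63) in the S6K1/S6K2 series. Rel also had 11.1 ± 3.86 CPM with EV and 6.67 ± 0.762 CPM with RAS in the S6K1/S6K2 series. Rnf11 had 183 ± 18.8 and 220 ± 17.4 CPM in the S6K1 series. With the replicate block Ikbke, Rel and Rnf11 were called in both series. Ikbke and Rnf11 are named for these counts after their values were seen.

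Of the 12 and 18 genes called, 9 were called in both series in the same direction. The like share over all genes was not counted, so the overlap is not read as particular to the pathway. Ptgs2, which encodes the inducible cyclooxygenase, had 155 ± 50.5 CPM with EV and 497 ± 48.1 CPM with RAS in the S6K1 series, a rise of 1.68 on the log2 scale (adjusted p = 0.00351 by edgeR). The same gene had 31.7 ± 22.1 and 521 ± 119 CPM in the S6K1/S6K2 series, a rise of 4.04 (adjusted p = 0.001002). Cd44, the hyaluronan receptor, rose by 1.09 and 2.32, Alcam by 1.43 and 1.74, the immediate early gene Ier3 by 1.82 and 2.29, the caspase-8 inhibitor Cflar by 0.96 and 1.67 and the interleukin-1 receptor subunit gene Il1rap by 1.09 and 0.81 on the log2 scale. Bcl2l1 completed the 8 genes that were higher in both and is named for that count after its values were seen. The integrin subunit gene Itgb7 was at or under the floor of 3 counts in every EV library, so its mean with RAS (2.93 ± 0.735 and 1.76 ± 0.632 CPM) was at least 12.46-fold and at least 6.68-fold higher, with the floor taken per library. The stress gene Gadd45b was the 1 gene lower in both (−1.61 and −1.47). Sele, the gene of E-selectin, passed in the S6K1 series (2.42) at a low level of 2.35 ± 0.513 CPM with RAS, and had 1.35 without passing in the other. Cd40 (3.42) and Itga4, a subunit of the Vcam1 receptor (16.05 ± 3.35 with EV and 90.9 ± 22.4 CPM with RAS, 2.50), rose in the S6K1/S6K2 series, where Irf1 (−1.31) and the adaptor gene Myd88 (−1.12) fell, and Tnfrsf1a, the gene of TNF receptor 1, fell by 0.42 in the S6K1 series. Tnfrsf1a also had 236 ± 40.1 CPM with EV and 175 ± 19.3 CPM with RAS in the S6K1/S6K2 series. With the replicate block Cd40, Myd88 and Tnfrsf1a were called in both series. No difference of these effects between the series passed in edgeR (15 of 69 pathway genes at an unadjusted p under 0.05, beside 12.6% of all genes, and 4 called in DESeq2, beside 0.472% of all genes).

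**Figure D5:**
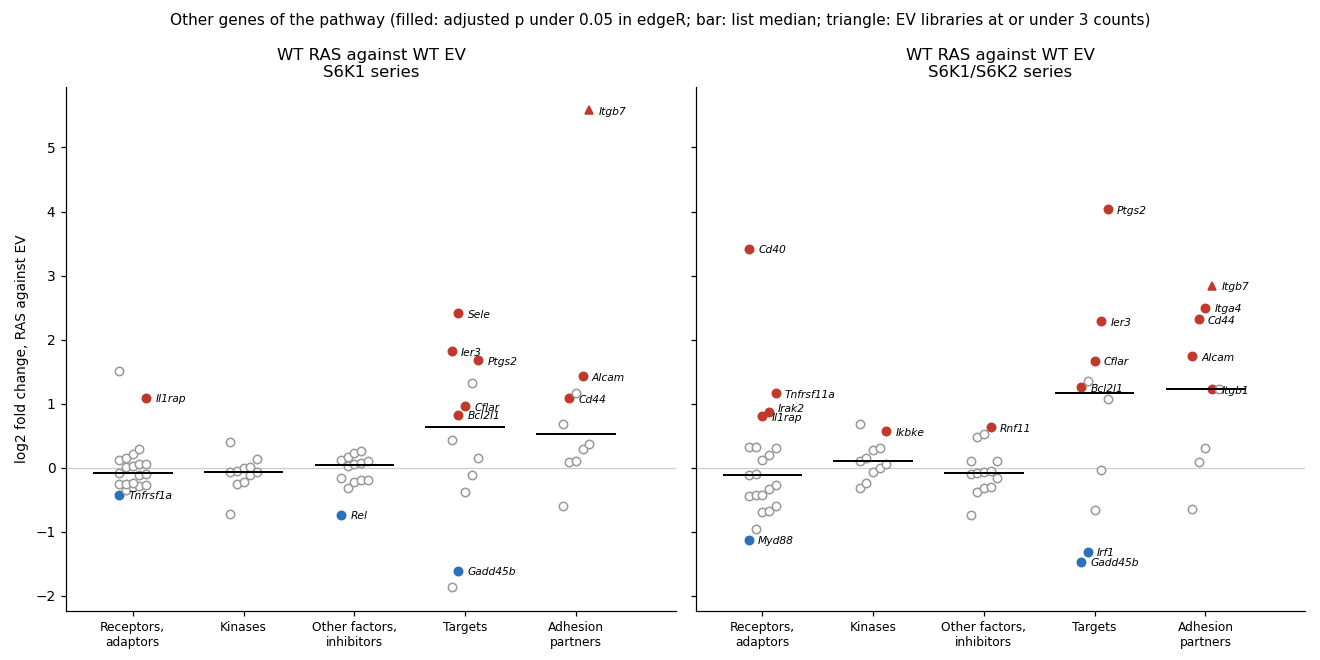
Log2 fold change with RAS (y axis) of the other pathway genes in 5 lists (x axis), one panel a series, with called genes filled and named and the list medians as bars. Filled points above 0 stand mainly in the target and adhesion lists, and for Itgb7 (triangle) the plotted fit is no bound, since its EV libraries are at or under 3 counts.

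With S6K1 loss 0 of 68 pathway genes passed in edgeR or DESeq2 (9 at an unadjusted p under 0.05, beside 6.86% of all genes, median −0.05). With loss of both kinases 0 of 65 passed (1 at an unadjusted p under 0.05, beside 1.29% of all genes, 0 in DESeq2, median −0.04). Blocked on the replicate number, 8 of 68 passed in the S6K1 series, beside 4.15% of all genes, all lower in KO (Tlr2, Tlr3, Itgal, Itgam, Itgb2, Bcl2a1b, Irf1 and Tnf, named after their values were seen). Itgam is itself one of the 20 macrophage markers, and Itgal and Itgb2 encode leukocyte integrin subunits. The part of macrophage RNA in these 8 values was not tested.

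For a description of likeness, log2 CPM over the 18 libraries was centred within each series and each member was set against 12872 genes. The libraries share groups and series, so the correlations carry no test. Icam1 was most like C3, Nt5dc2 and Hsf4 (Pearson's r 0.928, 0.916 and 0.900). Tnfaip3 was most like Entpd1, Eaf1 and Sema3e (0.950, 0.945 and 0.944), Nfkbiz like Pml, Ggta1 and Sec63 (0.961, 0.955 and 0.939) and Nfkbia like Raly, D230037D09Rik and Iah1 (0.956, 0.954 and 0.950). The factor genes had Psap, Dlgap4 and Ddx27 beside Rela (0.921, 0.898 and 0.897), Cd68, Bdh1 and Npy beside Nfkb2 (0.869, 0.858 and 0.847), Srd5a3, 2810428I15Rik and Tbc1d17 beside Relb (0.897, 0.891 and 0.883), and Zc3hav1, Adam33 and Birc3 beside Nfkb1 (0.881, 0.868 and 0.867). Cd68, the gene most like Nfkb2, is itself one of the macrophage markers, and the part of macrophage RNA in this likeness was not tested. Birc3 was nearest to Irx1, Zc3hav1 and Nfkb1 (0.880, 0.874 and 0.867), so Nfkb1 and Birc3 were the 2 members that named each other. Within the set, Relb and Nfkbia went together (r 0.793) and Relb and Nfkbiz went opposite ways (−0.813), and both patterns include WT EV replicate 1 of the S6K1/S6K2 series, which is extreme for all 3 genes.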

How the data were processed

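The authors deposited raw gene counts of poly(A) RNA-seq libraries, 1 column per library. Per the study's methods, single-end reads of stranded libraries were mapped to mm9 with TopHat and counted with HTSeq, whereas the submitters' processing notes name CASAVA, STAR 2.7.1a, DESeq2 1.28.1 and mm10. Of 55401 identifiers, 22812 are absent from the NCBIM37 annotation (the assembly of mm9), so build and annotation behind the counts are not settled, and NCBIM37 positions and exon lengths describe the genes, not the counting. Symbols were found for 32589 identifiers, which hold 99.1% of counts.

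The tests used edgeR 4.0.16 under R 4.3.3 (filterByExpr with a minimum count of 10, TMM, two-sided quasi-likelihood tests, Benjamini-Hochberg adjustment over all genes, threshold 0.05). The fit of a series took its 9 libraries and had no term but group, and differences between the series were fitted over all 18. The SE of a log2 fold change was its size divided by the square root of F. Levels are TMM-scaled CPM, log2 CPM uses a prior count of 2, and the floor is 3 counts, which covers counting error only. The test script was checked on simulated data.

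Replicates are MEFs of separate embryos per the study. No replicate pair agreed within counting noise (lowest chi-square per degree of freedom 7.98 over 18 pairs). Same-number libraries deviated together across genes: 0.684, 0.444 and 0.668 (RAS and EV) and 0.692, 0.393 and 0.616 (KO and WT) in the S6K1 series, and 0.366, 0.293 and 0.308 (RAS and EV) in the S6K1/S6K2 series, so these numbers were taken as pairs. Alternatives were DESeq2 1.42.0, its size factors, leaving out the filter, asking for 10 counts or more in each library, the replicate block, 6 or 18 libraries in the fit, and leaving out each library. The members and lists were chosen with earlier results of these data known. Named pathway genes are, per comparison, up to 8 called genes from the top and 8 from the bottom of the log2 fold changes, and likeness names the 3 genes with the highest Pearson correlation. The likeness of Vcam1 is not reported here.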

Additional observations from a re-analysis of the deposited data

How the results depend on the processing

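The members called kept within 1.5 times their count except as follows. With RAS in the S6K1 series the replicate block called 2 members and 26 pathway genes (36.2% of all genes), and the block with the 6 compared libraries 2 and 20 (32.2%). Leaving out 1 library gave 0 to 1 member. In the S6K1/S6K2 series 5 members were called with no filter (14.3% of all genes), with all 18 libraries (29.4%) and with the block over 6 libraries (26.0%), and 2 to 5 when 1 library was left out. For KO against WT the block called 1 member and 8 pathway genes (4.15% of all genes), and over 6 libraries 6 pathway genes (3.47%). In the difference of RAS effects DESeq2 called 1 member and 4 pathway genes (0.472% of all genes), no filter 1 and 5 (0.679%), the block 1 pathway gene (58 of 14483 genes in all), and leaving out 1 library 0 to 1 and 0 to 5. The block changed no other member's call than those given above. For DKO against WT the same-number correlations were 0.279, 0.454 and −0.035, so those libraries share only a number, and the block called 0 members there (8 of all genes against 3 without it). Sign changes concerned members that were not called, and their cause was not tested. Among them were Nfkbia (0.22) and Vcam1 (0.18) with RAS in the S6K1 series, below 0 without WT RAS replicate 1 and replicate 2, respectively, and Nfkbiz (−0.23) in KO, above 0 without WT RAS replicate 2. Icam1 with RAS in the S6K1 series was 0.026 with the block, 0.0020 with all 18 libraries and 0.026 with the block over 6 libraries. In the S6K1/S6K2 series Birc3 was −0.0044 with no filter and −0.0013 with the block, and Nfkb2 was 0.0056 with the block over 6 libraries. Nfkb2 with DKO was 0.011 with no filter. The difference of RAS effects for Tnfaip3 was 0.014 in DESeq2, 0.011 with its size factors, 0.017 unfiltered and 0.021 with 10 counts or more in each library. In the difference of loss effects, in the order DESeq2, its size factors, no filter and 10 counts or more, Relb was −0.0030, −0.0041, −0.0086 and −0.019, Nfkbiz was −0.0013, −0.011 and −0.020 in the last 3, and Rela was −0.00032 and −0.010 in the last 2. Leaving out 1 library gave these log2 ranges for the members that changed sign. With RAS in the S6K1 series they were −0.080 to 0.14 (Nfkb1), −0.082 to 0.022 (Nfkb2), −0.0026 to 0.13 (Rela), −0.086 to 0.16 (Relb), −0.059 to 0.50 (Nfkbia), −0.076 to 0.21 (Birc3), −0.22 to 0.18 (Icam1) and −0.063 to 0.42 (Vcam1). In the S6K1/S6K2 series they were −0.20 to 0.035 (Nfkb1), −0.083 to 0.098 (Nfkb2) and −0.12 to 0.10 (Birc3). For KO they were −0.034 to 0.19 (Rela) and −0.48 to 0.0032 (Nfkbiz), and for DKO −0.13 to 0.069 (Nfkb1), −0.062 to 0.035 (Nfkb2), −0.022 to 0.13 (Rela), −0.031 to 0.35 (Nfkbia) and −0.20 to 0.013 (Birc3). For the difference of RAS effects they were −0.24 to 0.0038 (Nfkb1), −0.069 to 0.12 (Nfkb2), −0.16 to 0.24 (Tnfaip3) and −0.21 to 0.071 (Birc3). For the difference of loss effects they were −0.11 to 0.11 (Rela), −0.11 to 0.11 (Relb), −0.24 to 0.26 (Nfkbiz) and −0.16 to 0.39 (Icam1). Members with few counts, such as Tnfaip3 with 39 in its lowest library, and groups of 3 libraries limit how small a difference could be called.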
